A study of Mus musculus with 8 samples.

Results

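The transcripts described here encode p53 and 9 products of the p53 pathway. They were Trp53, Mdm2, Ccng1, Bbc3, Bax, Sesn1, Sesn2, Phlda3, Zmat3 and Trp53inp1, taken by gene symbol from a deposited expression table, and all 10 were among its 12528 genes. The cells were immortalized mouse embryonic fibroblasts (MEFs) from wild-type (WT) animals and from littermates lacking caveolin-1 (Cav1KO), the membrane protein that builds the caveola coat. Both genotypes were seeded sparsely on fibronectin-coated polyacrylamide gels that were either stiff or soft, and poly(A) RNA was collected 24 h later. This gave 4 groups of 2 libraries, WT cells on stiff or soft gels and Cav1KO cells on either gel, called WT stiff, WT soft, Cav1KO stiff and, last, Cav1KO soft. No other treatment was applied, so no group had received a DNA-damaging agent. The number of lines behind each genotype and the way they were immortalized are not given in the sources used here, so the genotype and the line cannot be told apart. No label ties a library to a separate culture or animal, so p-values measure the spread between these libraries, which may be technical.

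p53, the product of Trp53, is a transcription factor held at low levels because the ubiquitin ligase Mdm2 marks it for degradation. Stress signals acting through kinases such as ATM and ATR release p53 from Mdm2, and it then binds DNA as a tetramer and switches on genes of cell-cycle arrest, apoptosis, DNA repair and metabolism. Mdm2 is itself a p53 target, which closes a negative feedback loop. In fibroblasts the pathway is known for imposing senescence, and cultures that escape it have often lost p53 or ARF function. Control of p53 is mostly at the level of protein stability, which mRNA levels do not measure.

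Promoter letters that resemble the sequence p53 binds are shown first, although close matches were found in only some of the genes. The promoter window of each gene, from 250 bases before to 50 bases after each RefSeq start (GRCm38.p6), was searched on both strands for the p53 consensus, a pair of adjoining decamers, with the invariant C and G of each decamer kept. The table held windows for 8 of the 10 genes, all but Zmat3 and Trp53inp1. The 4 best matches are printed 5′ to 3′ on the gene's strand, with 5 flanking bases on each side and the matched letters in capitals. The names give the position of the capitals.
Ccng1, chr11:40755462-40755481, minus strand: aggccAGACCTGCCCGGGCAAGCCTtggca
Trp53, chr11:69580284-69580303, plus strand: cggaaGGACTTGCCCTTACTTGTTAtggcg
Bbc3, chr7:16309486-16309505, plus strand: cccgaCTGCAAGCCCCGACTTGTCCccagc
Sesn1, chr10:41887266-41887285, plus strand: ccttcAAGCTTGTTTTTGCTGGCCTggtcc
The Ccng1 letters lay 195 bases before the start and had 1 mismatch to the consensus, a match that 0.067% of all 32851 windows equalled or bettered. The other 3 matches had 3 mismatches each, which 1.38% of windows reached. They lay 75 bases before the Trp53 start, 97 bases before the first of 3 Bbc3 starts and 173 bases before the second of 2 Sesn1 starts. The best match had 5 mismatches in Phlda3, a level that 12.4% of windows reached. It had 7 in Bax, reached by 39.5% of windows, and 9 in Mdm2 and Sesn2, reached by 61.3%. A match describes letters and shows no binding, and a poor match says only that these letters were not in this window.

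Libraries held 17089836 to 19944952 reads on the listed genes. Values are CPM, reads of a gene relative to the reads of its library, scaled by the authors with TMM factors, and 1 read was worth 0.0502 to 0.0604 CPM. The 10 genes had 75 to 8692 reads per library, and within groups of 2 their SD was between 0.0525% and 22.6% of the mean, with a median of 4.38%. In the WT libraries Cav1 ranged from 950 to 1157 CPM, against 0.0523 to 0.411 CPM, or 1 to 8 reads, in the 4 that lacked the gene. Of 10 fibroblast markers, 9 were listed. Their summed level was 8605 to 8870 CPM in WT stiff, 10636 to 10884 CPM in WT soft, 4301 to 5463 CPM in Cav1KO stiff and 13321 to 13362 CPM in Cav1KO soft. No marker of epithelial, endothelial or skeletal muscle cells was listed, and of 4 leukocyte markers only Cd68 was, at 0.552 to 4.55 CPM. The fibroblast marker sum moved with both substrate and genotype, and its part in the results was not tested. In bulk RNA, fewer cells of a kind and less RNA per cell cannot be told apart.

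Per length of transcript, Trp53 was the most abundant of the 10 transcripts, with a mean of 184.9 CPM per kb over the 8 libraries and a range of 126.9 to 248.6. Bax followed at 89.3 CPM per kb (69.6 to 122), Phlda3 at 50.7 (37.5 to 60.6) and Ccng1 at 20.3 (18.4 to 22.5), and the ranges of these 4 genes did not overlap. Sesn1, Zmat3, Mdm2 and Trp53inp1 averaged 10.9, 9.62, 9.48 and 6.44 CPM per kb, with overlapping ranges. Bbc3 and Sesn2 were lowest, at 3.56 and 3.15 CPM per kb, and their ranges overlapped each other and that of Trp53inp1, which ran from 0.985 to 11.9.

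**Figure D1:**
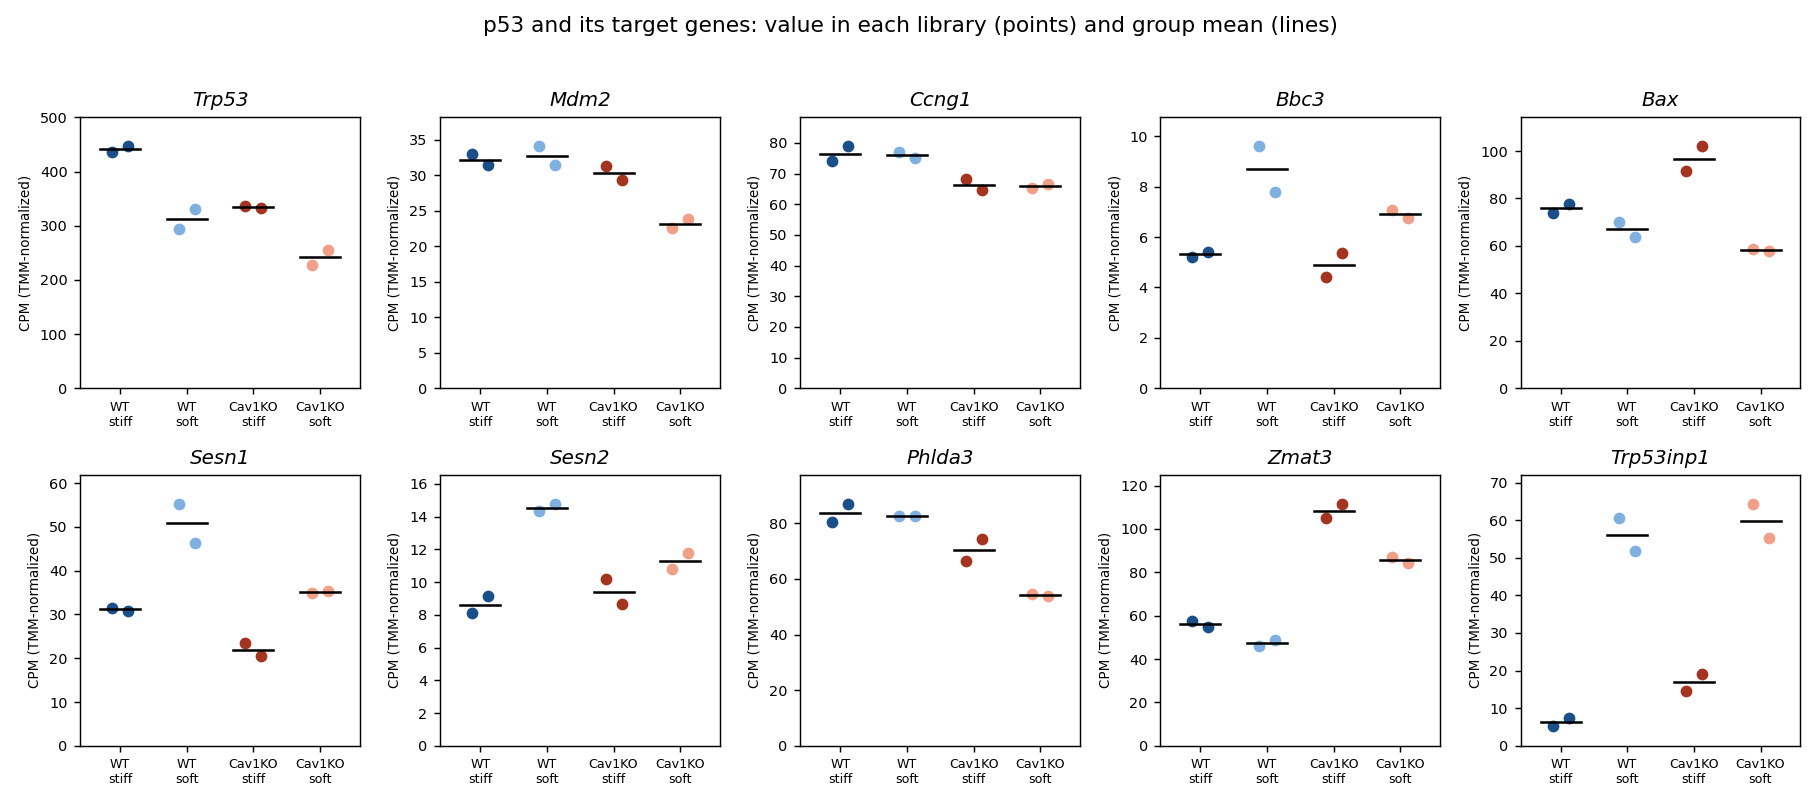
TMM-normalized CPM (y axis, starting at 0) of each of the 10 genes in the 4 groups (x axis); points are libraries, 2 per group, and lines are group means. Trp53inp1 sat at 5.32 to 19.1 CPM on stiff gels and at 51.7 to 64.4 CPM on soft gels, while Ccng1 separated by genotype and not by substrate.

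The first question was which of these genes followed substrate stiffness. Tests were made by limma on log2(CPM + 1), where changes of low genes come out too small, with p-values adjusted over the 12494 genes that reached 1 CPM in at least 2 libraries. All 10 genes passed this filter, and a gene was called when its adjusted p was under 0.05. The groups shared an estimate of the spread. A fit without a library outside a comparison could therefore change its adjusted p but not its effect. In WT cells Trp53 and Zmat3 were higher on stiff gels, whereas Bbc3, Sesn1, Sesn2 and Trp53inp1 were higher on soft gels. These calls, 2 higher and 4 lower on stiff, stood beside 22.1% of all genes called higher and 26.3% called lower, or 48.4% in either direction. The median log2 fold change, stiff over soft, of the 10 genes was -0.0079, and that of all genes -0.019. With DESeq2 the split was 1 higher and 4 lower, since Zmat3 was not called there, beside 19.6% and 21.5% of all genes.

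In Cav1KO cells 5 genes, Trp53, Mdm2, Bax, Phlda3 and Zmat3, were higher on stiff gels, and 3 genes, Bbc3, Sesn1 and Trp53inp1, were higher on soft gels. Among all genes 27.9% were called higher and 28.2% lower, or 56.1% in all. The median log2 fold change was 0.17 for the 10 genes and -0.023 for all genes. Thus the rises on stiff gels included p53 and its inhibitor together with one pro-apoptotic target, and the falls included a pro-apoptotic target, a sestrin and Trp53inp1. No direction was shared by the whole set in either genotype. Of the 4 genes whose promoter letters are printed above, Ccng1, with the closest match, was called for stiffness in neither genotype, Trp53 was called higher and Bbc3 and Sesn1 lower on stiff gels in both.

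**Figure D2:**
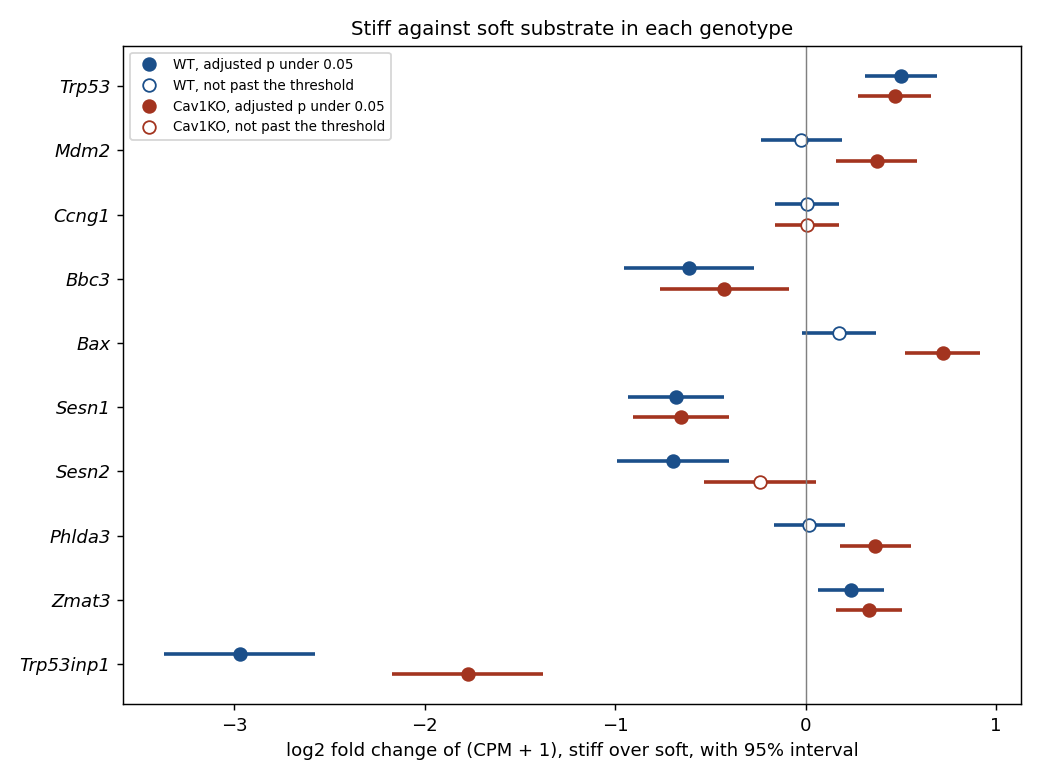
Log2 fold change of (CPM + 1), stiff over soft (x axis), of each gene (y axis) in WT and Cav1KO cells, with 95% intervals from limma; filled points passed an adjusted p of 0.05. Trp53inp1 lay farthest from 0, at -2.97 in WT and -1.77 in Cav1KO cells, and the Trp53 points of the genotypes nearly coincide.

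Trp53 (ENSMUSG00000059552; chromosome 11, 69580359 to 69591873, plus strand, GRCm38) was expressed in WT cells at 436.5 and 446.8 CPM on stiff and at 293.3 and 331.3 CPM on soft gels. In Cav1KO cells it was at 335.9 and 331.8 CPM on stiff gels and at 228.0 and 254.5 CPM on soft gels. The stiff libraries of each genotype lay above the soft ones with no overlap, and the WT libraries lay above the Cav1KO libraries on each gel. The rise on stiff gels was 1.41-fold in WT (log2 fold change 0.50, SE 0.084, limma adjusted p = 0.00151) and 1.38-fold in Cav1KO cells (0.47, SE 0.084, limma adjusted p = 0.00161). The difference between these effects was 0.032 on the log2 scale, with a 95% interval from -0.24 to 0.30 (limma adjusted p = 0.867). Against WT, Cav1KO cells were lower by a log2 fold change of -0.40 on stiff gels (limma adjusted p = 0.00395) and of -0.37 on soft gels (limma adjusted p = 0.00563). The soft call was lost without Cav1KO soft replicate 1 (limma adjusted p = 0.065). Of the 60-base windows of Trp53 transcripts, 2.20% also occurred in the pseudogene Trp53-ps, so reads from these stretches could be split between the genes.

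Mdm2, the ligase that opposes p53 (ENSMUSG00000020184; chromosome 10, 117688875 to 117710758, minus strand), was in WT cells at 33.0 and 31.4 CPM on stiff and at 34.1 and 31.4 CPM on soft gels. It was at 31.2 and 29.3 CPM in Cav1KO stiff and at 22.5 and 23.8 CPM in Cav1KO soft. The Cav1KO soft libraries were thus lowest of the 8, and the WT groups overlapped. The WT stiffness effect was -0.023 on the log2 scale (95% interval -0.24 to 0.19, limma adjusted p = 0.857), while in Cav1KO cells the gene was 1.31-fold higher on stiff gels (log2 fold change 0.37, SE 0.093, limma adjusted p = 0.00867). The latter call was lost without Cav1KO soft replicate 1 (limma adjusted p = 0.0697). The difference of the effects, -0.40, had a 95% interval from -0.70 to -0.10 but did not pass the adjusted threshold (limma adjusted p = 0.0799). On soft gels Mdm2 was lower in Cav1KO than in WT cells (log2 fold change -0.48, limma adjusted p = 0.00246), and on stiff gels the genotypes differed by -0.086 (95% interval -0.30 to 0.13, limma adjusted p = 0.469).

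Ccng1 encodes cyclin G1, which acts in the feedback on p53 by bringing a phosphatase to Mdm2 (ENSMUSG00000020326; chromosome 11, 40748552 to 40755311, minus strand). It was at 74.2 and 79.0 CPM in WT stiff, 77.2 and 75.1 in WT soft, 68.1 and 64.5 in Cav1KO stiff and 65.3 and 66.6 CPM in Cav1KO soft. The 4 WT libraries lay above the 4 Cav1KO libraries, and the substrates overlapped within each genotype. The stiffness effect was 0.0074 on the log2 scale in WT (95% interval -0.16 to 0.18, limma adjusted p = 0.948) and 0.0071 in Cav1KO cells (95% interval -0.16 to 0.18, limma adjusted p = 0.950). The genotype effect was -0.20 on stiff (limma adjusted p = 0.0455) and -0.20 on soft gels (limma adjusted p = 0.0441). Both genotype calls were near the threshold. The one on stiff gels was lost in 7 of 8 fits that left out a library, every one but that without Cav1KO stiff replicate 1, at adjusted p from 0.0581 to 0.193. The one on soft gels was lost in 6 of 8, all but those without a Cav1KO stiff library, at adjusted p from 0.0523 to 0.189. Over the 8 other scalings, filters and tools tried on all libraries, adjusted p ranged from 0.0452 to 0.175 on stiff and from 0.0432 to 0.193 on soft gels, and DESeq2, median centring, quantile normalization and limma without the trend called neither.

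The pro-apoptotic targets did not move together. Bax encodes the protein that permeabilizes the mitochondrial outer membrane (ENSMUSG00000003873; chromosome 7, 45461697 to 45466898, minus strand), and was at 73.8 and 77.8 CPM in WT stiff, 70.3 and 63.8 in WT soft, 91.4 and 102 in Cav1KO stiff and 58.6 and 58.0 CPM in Cav1KO soft. The Cav1KO cells held both the highest values, on stiff gels, and the lowest, on soft gels, and no groups overlapped. Stiff exceeded soft 1.66-fold in Cav1KO cells (log2 fold change 0.72, SE 0.086, limma adjusted p = 0.000189), whereas the WT effect of 0.18 had a 95% interval from -0.020 to 0.37 (limma adjusted p = 0.122). The effects differed by -0.54 (SE 0.12, limma adjusted p = 0.0337). This difference was lost without the mean-variance trend (adjusted p = 0.0596) and without any 1 library other than Cav1KO stiff replicate 1 and WT stiff replicate 2, at adjusted p from 0.0543 to 0.138. Over the alternatives with all libraries its adjusted p ranged from 0.0222 to 0.0596. Cav1KO cells were above WT on stiff gels (log2 fold change 0.35, limma adjusted p = 0.00916), a call lost without Cav1KO stiff replicate 2 (adjusted p = 0.0522) or WT stiff replicate 1 (adjusted p = 0.0581). On soft gels the genotype effect was -0.20 (95% interval -0.39 to -0.0022, limma adjusted p = 0.0806). Bax shares 12.2% of its exon bases with the overlapping gene Gm45808, which the table did not list.

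Bbc3 encodes Puma, a BH3-only protein that frees Bax from its inhibitors (ENSMUSG00000002083; chromosome 7, 16308393 to 16318205, plus strand). Its levels were 5.22 and 5.42 CPM in WT stiff, 9.61 and 7.79 in WT soft, 4.41 and 5.37 in Cav1KO stiff and 7.06 and 6.74 CPM in Cav1KO soft, from 75 to 159 reads. Soft libraries lay above stiff ones in each genotype, opposite to Bax in Cav1KO cells. The soft level was 1.64 times the stiff level in WT (log2 fold change, stiff over soft, -0.61, SE 0.15, limma adjusted p = 0.00947) and 1.41 times in Cav1KO cells (-0.43, SE 0.15, limma adjusted p = 0.0371). The WT call was lost without WT soft replicate 1 (adjusted p = 0.0719). It was also lost with quantile normalization (adjusted p = 0.0695, the highest of a range from 0.00651). The Cav1KO call was lost in 5 of the 8 fits that left out a library, those without either WT stiff or either Cav1KO soft library or without Cav1KO stiff replicate 1, at adjusted p from 0.0518 to 0.167. It was also lost with median centring (adjusted p = 0.0927), quantile normalization (adjusted p = 0.565) and DESeq2 (adjusted p = 0.159), the alternatives ranging from 0.0226 to 0.565. The genotype effects were -0.11 on stiff (95% interval -0.45 to 0.23) and -0.29 on soft gels (95% interval -0.63 to 0.049), with limma adjusted p of 0.584 and 0.130.

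Sestrins are stress-induced proteins that restrain mTORC1 signaling. Sesn1 (ENSMUSG00000038332; chromosome 10, 41809935 to 41908424, plus strand) was at 31.5 and 30.9 CPM in WT stiff, 55.3 and 46.3 in WT soft, 23.5 and 20.5 in Cav1KO stiff and 34.9 and 35.3 CPM in Cav1KO soft. Within each genotype the soft libraries were higher, and on each gel the WT libraries were higher. The soft level was 1.63 times the stiff level in WT (log2 fold change -0.68, SE 0.11, limma adjusted p = 0.00132) and 1.60 times in Cav1KO cells (-0.65, SE 0.11, limma adjusted p = 0.00121). The effects differed by -0.027, with a 95% interval from -0.38 to 0.33 (limma adjusted p = 0.918). Cav1KO cells were lower than WT on stiff (log2 fold change -0.49, limma adjusted p = 0.00591) and soft gels (-0.52, limma adjusted p = 0.00426). These 4 calls were kept without each of the 8 libraries in turn.

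Sesn2, which is also induced by the stress factor ATF4 (ENSMUSG00000028893; chromosome 4, 132492032 to 132510501, minus strand), was at 8.09 and 9.12 CPM in WT stiff, 14.3 and 14.8 in WT soft, 10.2 and 8.66 in Cav1KO stiff and 10.8 and 11.8 CPM in Cav1KO soft. WT soft stood above every other library. The soft level was 1.69 times the stiff level in WT (log2 fold change -0.70, SE 0.13, limma adjusted p = 0.00262). In Cav1KO cells the effect was -0.24 (95% interval -0.53 to 0.057, limma adjusted p = 0.148), and with quantile normalization it turned to 0.013. The difference between genotypes, -0.46, did not pass the threshold (95% interval -0.88 to -0.040, limma adjusted p = 0.118), nor did the genotype effect on soft gels, -0.34 (95% interval -0.64 to -0.047, limma adjusted p = 0.0517), or on stiff gels, 0.12 (95% interval -0.18 to 0.41, limma adjusted p = 0.484). The soft genotype effect was called when Cav1KO stiff replicate 1 (adjusted p = 0.0421) or Cav1KO stiff replicate 2 (adjusted p = 0.0411) was left out, and its adjusted p ranged from 0.0249 to 0.208 over the alternatives with all libraries.

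Phlda3 and Zmat3 separated the genotypes in opposite directions. Phlda3 encodes a PH-domain protein that competes with Akt for membrane lipids (ENSMUSG00000041801; chromosome 1, 135766119 to 135769136, plus strand), and was at 80.6 and 87.0 CPM in WT stiff, 82.7 and 82.6 in WT soft, 66.4 and 74.3 in Cav1KO stiff and 54.7 and 53.8 CPM in Cav1KO soft. All WT libraries lay above all Cav1KO libraries. On soft gels the WT level was 1.52 times the Cav1KO level (log2 fold change, Cav1KO over WT, -0.60, SE 0.082, limma adjusted p = 0.000372). On stiff gels the effect was -0.25 (limma adjusted p = 0.0315), a call lost without Cav1KO stiff replicate 1, WT stiff replicate 2 or either Cav1KO soft library (adjusted p from 0.061 to 0.153), and with median centring (adjusted p = 0.117), DESeq2 (adjusted p = 0.105) or no trend (adjusted p = 0.0593), the alternatives ranging from 0.0314 to 0.117. Stiff exceeded soft in Cav1KO cells (log2 fold change 0.37, SE 0.082, limma adjusted p = 0.00512), and the WT effect was 0.019 (95% interval -0.17 to 0.21, limma adjusted p = 0.868). The effects differed by -0.35 (95% interval -0.61 to -0.082, limma adjusted p = 0.0810). This difference was called without Cav1KO stiff replicate 1 (adjusted p = 0.03).

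Zmat3 encodes an RNA-binding zinc-finger protein that shapes splicing and mRNA decay downstream of p53 (ENSMUSG00000027663; chromosome 3, 32334792 to 32366014, minus strand). It was at 57.7 and 54.6 CPM in WT stiff, 46.2 and 48.8 in WT soft, 104.9 and 112 in Cav1KO stiff and 86.9 and 84.5 CPM in Cav1KO soft. Every Cav1KO library lay above every WT library. The Cav1KO level was 1.93 times the WT level on stiff gels (log2 fold change 0.93, SE 0.076, limma adjusted p = 1.88e-05) and 1.804 times on soft gels (0.84, SE 0.076, limma adjusted p = 3.37e-05). Stiff exceeded soft by 0.24 in WT (limma adjusted p = 0.0309) and by 0.33 in Cav1KO cells (limma adjusted p = 0.00560), with a difference of -0.096 (95% interval -0.34 to 0.15, limma adjusted p = 0.544). The WT call was lost without either WT stiff library, either Cav1KO soft library or WT soft replicate 1. Without either Cav1KO soft library, which are outside this comparison, the effect stayed at 0.24. The WT call was also lost with DESeq2 (adjusted p = 0.0956) and with no trend (adjusted p = 0.0588), the alternatives ranging from 0.0221 to 0.0956. Zmat3 was thus higher where Trp53, Ccng1, Sesn1 and Phlda3 were lower.

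**Figure D3:**
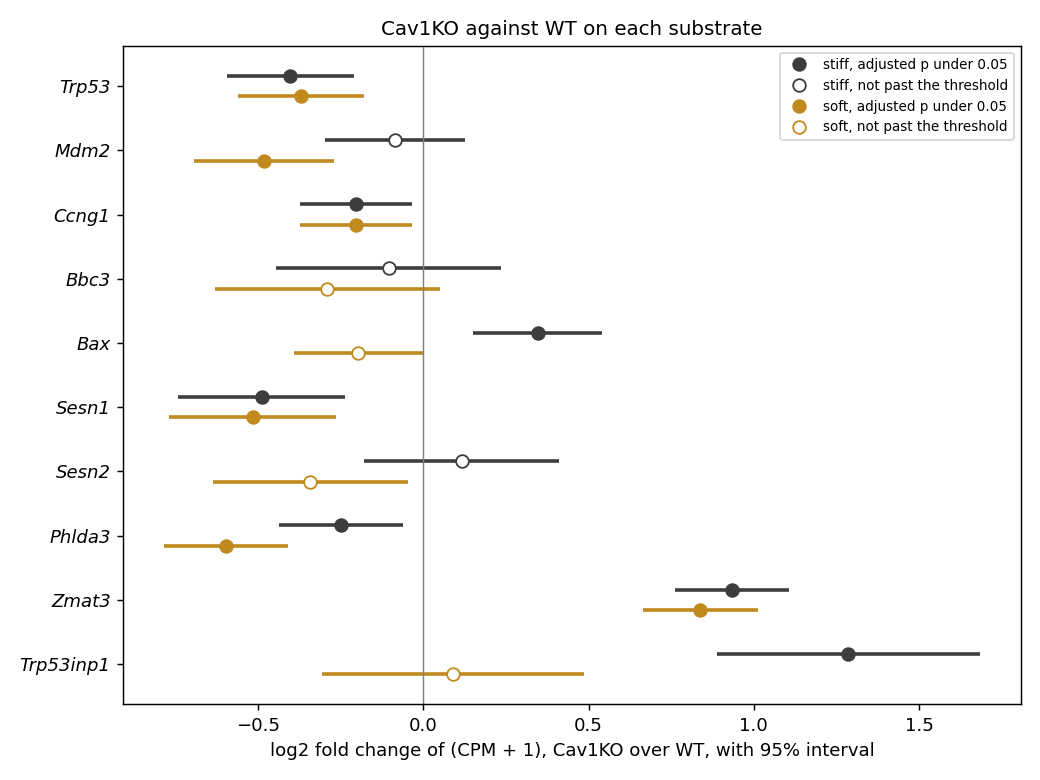
Log2 fold change of (CPM + 1), Cav1KO over WT (x axis), of each gene (y axis) on stiff and soft gels, with 95% intervals from limma; filled points passed an adjusted p of 0.05. Zmat3 lay above 0 on both gels, at 0.93 and 0.84, and Trp53inp1 did so at 1.29 on stiff gels but at 0.090 on soft gels.

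Trp53inp1 had the largest stiffness effect of the 10 genes in each genotype. It encodes a nuclear partner of p53 that promotes p53 phosphorylation and cell death and also takes part in autophagy (ENSMUSG00000028211; chromosome 4, 11156431 to 11174379, plus strand). Its levels were 5.32 and 7.35 CPM in WT stiff, 60.6 and 51.7 in WT soft, 14.7 and 19.1 in Cav1KO stiff and 64.4 and 55.3 CPM in Cav1KO soft, from 106 to 1231 reads. Soft libraries of both genotypes overlapped with each other, and stiff libraries were far below them, lowest in WT. The group mean ± SD (n = 2) rose from 6.34 ± 1.44 to 56.2 ± 6.26 CPM between WT stiff and WT soft, an 8.86-fold change (log2 fold change, stiff over soft, -2.97, SE 0.17, limma adjusted p = 3.25e-05). In Cav1KO cells it rose from 16.9 ± 3.12 to 59.8 ± 6.41 CPM, 3.55-fold (log2 fold change -1.77, SE 0.17, limma adjusted p = 7.27e-05). On stiff gels Cav1KO cells held 2.66 times the WT level (log2 fold change 1.29, SE 0.17, limma adjusted p = 0.000381), and on soft gels the genotypes differed by 0.090 (95% interval -0.31 to 0.49, limma adjusted p = 0.687). The stiffness effects differed by -1.20 (SE 0.25, limma adjusted p = 0.0293). That difference was called with each of the 8 other scalings, filters and tools tried on all libraries, at adjusted p from 9.91e-05 to 0.0454, but was lost without any 1 library other than Cav1KO stiff replicate 1 and WT stiff replicate 2, at adjusted p from 0.0568 to 0.111. Its size ranged from -1.40 to -0.996 over the 8 fits that left out a library.

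The second question was how the genotypes compared on each substrate. On stiff gels 3 of the 10 genes, Bax, Zmat3 and Trp53inp1, were called higher in Cav1KO than in WT cells and 4, Trp53, Ccng1, Sesn1 and Phlda3, were called lower, beside 25% of all genes called higher and 26.6% lower, or 51.7% in all. The median log2 fold change was -0.096, against -0.025 over all genes. With median centring the split was 3 higher and 2 lower, Ccng1 and Phlda3 having lost their calls, beside 27.4% and 23.5% of all genes. It was also 3 higher and 2 lower with DESeq2, beside 22.3% and 23.1%. On soft gels Zmat3 alone was called higher and 5 genes, Trp53, Mdm2, Ccng1, Sesn1 and Phlda3, were called lower, beside 24.1% and 29.9% of all genes, or 54% in all. The median there was -0.32, against -0.032 over all genes. The comparisons share libraries with those of stiffness, so their counts are not independent of one another.

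The third question was whether the response to stiffness depended on caveolin-1, tested as the WT effect minus the Cav1KO effect. Bax and Trp53inp1 were called with a more negative effect in WT, beside 6% of all genes. No gene of the 10 was called the other way, beside 4.47% of all genes (10.5% in all). The counts were also 2 and 0 by DESeq2, beside 6.17% and 6.86% of all genes, and by edgeR, beside 4.33% and 2.89%. At an unadjusted limma p under 0.05 the counts were 5 and 0, beside 19.5% and 15.2% of all genes, or 34.7% in all. The median difference of the 10 genes was -0.27, against -0.068 over all genes. The median of all genes is itself below 0, and the values given for the 10 genes are not corrected for it. The plot of effects in both genotypes places the 10 genes beside the other lists.

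**Figure D4:**
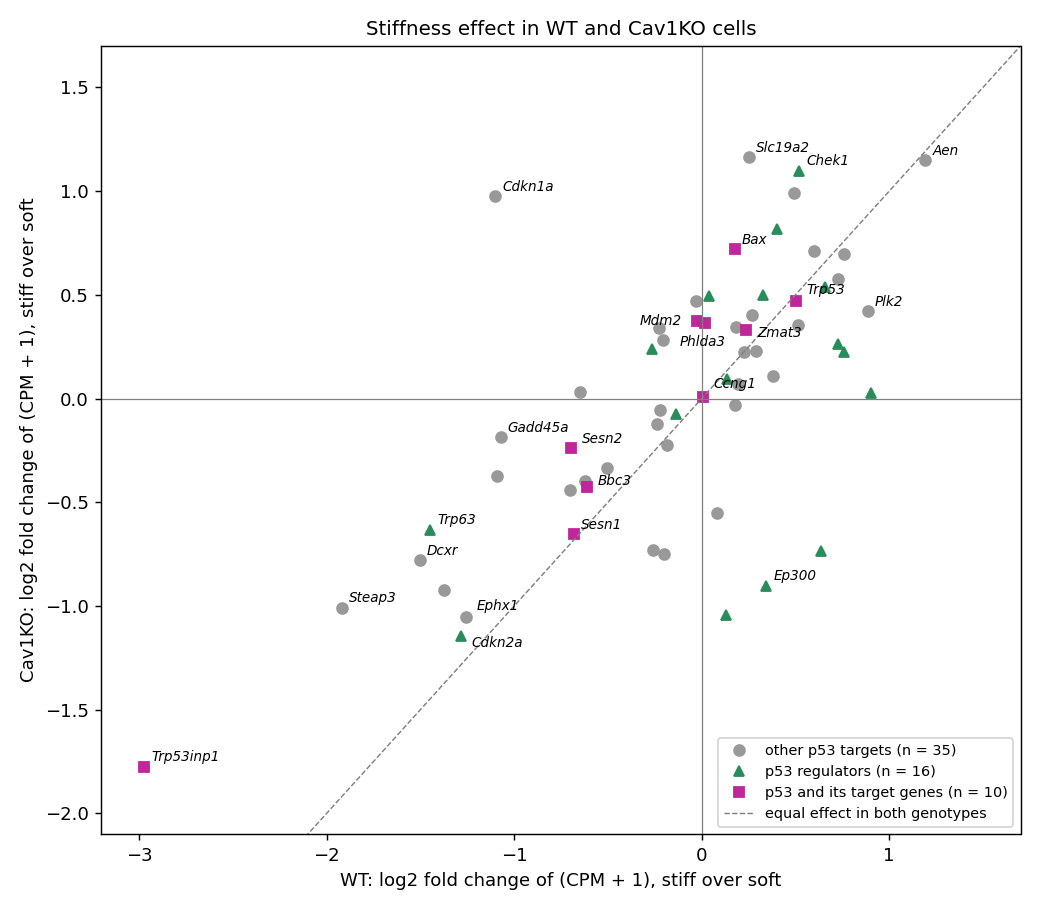
Log2 fold change of (CPM + 1), stiff over soft, in WT (x axis) and Cav1KO cells (y axis) for the 10 genes (squares), 35 other p53 targets (circles) and 16 p53 regulators (triangles); the dashed line marks equal effects. Cdkn1a stands apart in the upper left, at -1.10 in WT and 0.98 in Cav1KO cells, and Trp53inp1 in the lower left.

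For context, 38 further p53 targets were listed from general knowledge, of which 35 were in the table and tested; Gdf15, Perp and Spata18 were not listed there. In WT cells 8 of the 35 (22.9%) were called higher on stiff gels and 11 (31.4%) lower, beside 22.1% and 26.3% of all genes, and their median log2 fold change was -0.19. The Cav1KO cells had 12 rises (34.3%) and 8 falls (22.9%) among them, beside 27.9% and 28.2% of all genes, and the median was 0.070. For the WT minus Cav1KO difference limma called none higher, beside 4.47% of all genes, and 5 (14.3%) lower, beside 6%, with a median of -0.16. At an unadjusted limma p under 0.05 these counts were 2 and 9, beside 15.2% and 19.5% of all genes. At an adjusted p under 0.05 they were 0 and 5 by edgeR, beside 2.89% and 4.33% of all genes. By DESeq2 they were 0 and 6, beside 6.86% and 6.17%. Between genotypes 8 were higher and 8 lower in Cav1KO cells on stiff gels (22.9% each, beside 25% and 26.6% of all genes, median 0.084). On soft gels 7 (20%) were higher and 12 (34.3%) lower, beside 24.1% and 29.9% (median -0.19). As with the 10 genes, calls ran in both directions in every comparison but the difference of effects.

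Cdkn1a, which encodes the cell-cycle inhibitor p21 and is the best-known p53 target, was called in opposite directions in the genotypes. It was at 7.08 and 6.44 CPM in WT stiff, 15.2 and 16.0 in WT soft, 4.65 and 3.73 in Cav1KO stiff and 1.83 and 1.44 CPM in Cav1KO soft, from 28 to 298 reads. No groups overlapped, with WT soft highest and Cav1KO soft lowest. In WT the soft level was 2.31 times the stiff level (log2 fold change, stiff over soft, -1.10, SE 0.15, limma adjusted p = 0.000545), and in Cav1KO cells the stiff level was 2.56 times the soft level (0.98, SE 0.15, limma adjusted p = 0.000736). The difference was -2.07 (SE 0.21, limma adjusted p = 0.00286), and it was called in every fit run, including those without each library. On soft gels WT cells had 9.55 times the Cav1KO level (log2 fold change, Cav1KO over WT, -2.66, limma adjusted p = 2.08e-06), and on stiff gels 1.61 times (-0.59, limma adjusted p = 0.0109). The stiff call was lost without Cav1KO stiff replicate 2 (adjusted p = 0.0649) or WT stiff replicate 1 (adjusted p = 0.0664). An antisense transcript, AC167363.2, overlaps 7.68% of the exon bases of Cdkn1a, and the sources used here do not say that strand was used in counting.

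**Figure D5:**
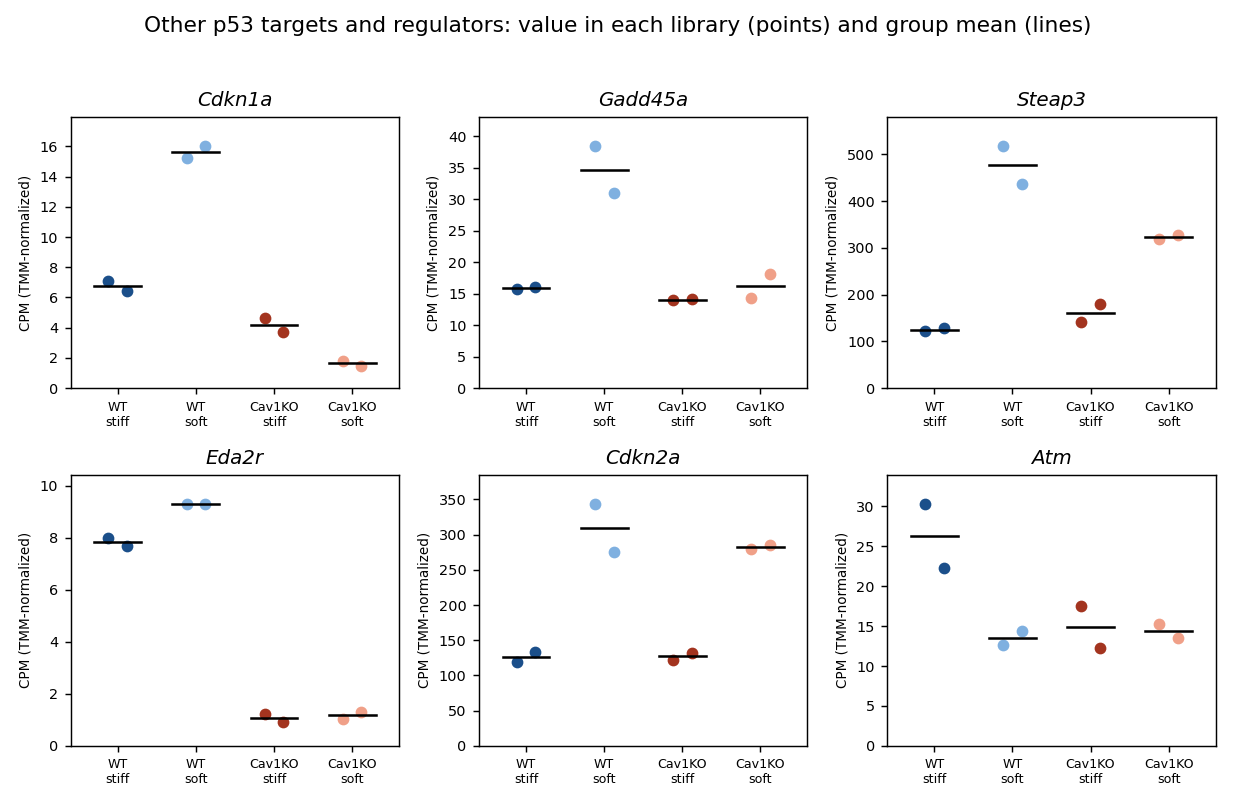
TMM-normalized CPM (y axis, starting at 0) of 4 other p53 targets and 2 p53 regulators in the 4 groups (x axis); points are libraries, 2 per group, and lines are group means. Cdkn1a runs from 1.44 CPM in Cav1KO soft to 16.0 CPM in WT soft, Eda2r separates the genotypes, and Cdkn2a separates the substrates.

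Among the other targets called on substrate in WT, the rises on stiff gels were led by Aen, an apoptosis-enhancing nuclease, Plk2, a polo-like kinase, and Pidd1, a death-domain protein that activates caspase-2. In WT cells Aen averaged 33.5 ± 2.51 CPM (SD, n = 2) on stiff and 14.2 ± 2.96 CPM on soft gels (log2 fold change 1.19, limma adjusted p = 0.000303), and its effect in Cav1KO cells was 1.15 (limma adjusted p = 0.000248). Plk2 rose by 0.88 in WT (limma adjusted p = 0.000364) and by 0.42 in Cav1KO cells (limma adjusted p = 0.0114). Pidd1, at 0.784 to 4.37 CPM, had effects of 0.76 (limma adjusted p = 0.0266) and 0.70 (limma adjusted p = 0.0321). Aen, Plk2 and Pidd1 were named for their rise in WT, and by limma they were also called higher on stiff gels in Cav1KO cells. With DESeq2 both Pidd1 calls were lost, at adjusted p of 0.0835 in WT and 0.0598 in Cav1KO cells, the highest of the alternatives, which began at 0.00696 and 0.00802. In Cav1KO cells the leading rises were Slc19a2, a thiamine transporter, at 1.16 (limma adjusted p = 0.000141), Aen, and Rps27l, a ribosomal protein relative, at 0.99 (limma adjusted p = 7.55e-05). In WT cells the effect of Slc19a2 was 0.25 (limma adjusted p = 0.146) and that of Rps27l 0.49 (limma adjusted p = 0.00366).

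The falls on stiff gels were led by Steap3, a ferrireductase, at 122 and 129 CPM in WT stiff against 517 and 436 CPM in WT soft (log2 fold change -1.92, limma adjusted p = 3.67e-05). In Cav1KO cells Steap3 was at 142 and 180 CPM on stiff and 318 and 328 CPM on soft gels (-1.01, limma adjusted p = 0.000189). The soft libraries stood above the stiff ones in each genotype, and the effects differed by -0.91 (limma adjusted p = 0.0217). Dcxr, a reductase of sugars and dicarbonyls, changed by -1.50 in WT (limma adjusted p = 0.000274) and by -0.78 in the knockout (limma adjusted p = 0.00548). Cd82, a tetraspanin that limits cell motility, changed by -1.38 in WT (limma adjusted p = 0.000217) and by -0.92 in the knockout (limma adjusted p = 0.00107). Ephx1, the microsomal epoxide hydrolase, changed by -1.26 in WT (limma adjusted p = 7.71e-05) and by -1.05 in the knockout (limma adjusted p = 8.7e-05). Each of these 4 genes was higher on soft gels in both genotypes.

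Between genotypes, Eda2r, a receptor of the TNF receptor family, ranged from 7.70 to 9.30 CPM over the WT libraries. Over the Cav1KO libraries it ranged from 0.932 to 1.29 CPM, or 17 to 25 reads. The log2 fold change was -2.09 on stiff (limma adjusted p = 7.04e-06) and -2.25 on soft gels (limma adjusted p = 4.31e-06). Plk2 was lower in Cav1KO cells on stiff gels (log2 fold change -1.04, limma adjusted p = 9.56e-05), as was Polh, the translesion polymerase eta (-1.01, limma adjusted p = 9.26e-05). Plk3, another polo-like kinase, was lower on soft gels (-1.09, limma adjusted p = 0.000452). Pmaip1, which encodes the pro-apoptotic BH3-only protein Noxa, averaged under 1 CPM and is named after its values were seen. It had 22 to 39 reads in each WT library and 0 to 2 in each Cav1KO library, with limma adjusted p of 0.000256 on stiff and 0.000605 on soft gels. Genes higher in Cav1KO cells included Gls2, a mitochondrial glutaminase, at 1.14 to 1.81 CPM in WT and 3.70 to 6.89 CPM in Cav1KO libraries. Its log2 fold change was 1.64 on stiff (limma adjusted p = 0.000278) and 1.07 on soft gels (limma adjusted p = 0.00267). Also higher in Cav1KO cells were Rrm2b, a ribonucleotide reductase subunit, by 0.86 on stiff gels (limma adjusted p = 0.00366), and the excision repair genes Ercc5 and Xpc by 0.87 (limma adjusted p = 0.00902) and 0.74 (limma adjusted p = 0.00696) on soft gels. Ei24, an endoplasmic reticulum protein of autophagy, was higher by 0.76 on stiff gels (limma adjusted p = 0.000921).

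The regulators of p53 were a list of 17, of which 16 were tested and Trp73 was not listed in the table. The list holds genes that promote p53 and genes that oppose it, so its counts give no direction of regulation. On stiff gels 7 (43.8%) were called higher and 2 (12.5%) lower in WT, beside 22.1% and 26.3% of all genes (median log2 fold change 0.33). In Cav1KO cells 5 (31.2%) were higher and 3 (18.8%) lower, beside 27.9% and 28.2% (median 0.16). Among the kinases that signal DNA damage to p53, Atr and Chek1 were called higher on stiff gels in both genotypes. In WT Atr rose by 0.66 (limma adjusted p = 0.00240) and Chek1 by 0.52 (limma adjusted p = 0.00771), and without caveolin-1 Atr rose by 0.54 (limma adjusted p = 0.00514) and Chek1 by 1.10 (limma adjusted p = 0.000128). Atm rose by 0.90 in WT (limma adjusted p = 0.00532) and had an effect of 0.029 in Cav1KO cells (limma adjusted p = 0.917). Chek2 had an effect of 0.039 in WT (limma adjusted p = 0.824) and rose by 0.49 in Cav1KO cells (limma adjusted p = 0.0110). For these 4 kinases the difference between the effects had a limma adjusted p from 0.0607 to 0.634. Hipk2, a kinase of p53, and Usp7, which removes ubiquitin from p53 and Mdm2, rose in WT by 0.76 (limma adjusted p = 0.0123) and 0.73 (limma adjusted p = 0.00501). Their effects in Cav1KO cells were 0.23 and 0.26 (limma adjusted p of 0.358 and 0.179), and the differences had limma adjusted p of 0.201 and 0.167. Wrap53 lies head to head with Trp53 and is transcribed from the opposite strand. It rose by 0.40 in WT (limma adjusted p = 0.0247) and by 0.82 in Cav1KO cells (limma adjusted p = 0.000627). Rfwd2, a ubiquitin ligase that opposes p53, rose by 0.33 in WT (edgeR adjusted p = 0.0114) and by 0.51 in Cav1KO cells (edgeR adjusted p = 0.000973).

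Cdkn2a, which encodes both ARF, an inhibitor of Mdm2, and p16INK4a, was at 119 and 133 CPM in WT stiff, 344 and 275 in WT soft, 122 and 133 in Cav1KO stiff and 279 and 286 CPM in Cav1KO soft. Soft libraries stood above stiff ones in both genotypes, opposite to Trp53, with log2 fold changes of -1.28 (SE 0.11, limma adjusted p = 7.61e-05) and -1.14 (SE 0.11, limma adjusted p = 6.31e-05). Values per gene do not separate ARF from p16INK4a. Trp63, a p53 relative at 1.11 to 8.40 CPM, changed by -1.45 in WT (limma adjusted p = 0.00398) and had an effect of -0.63 in Cav1KO cells (limma adjusted p = 0.0983). The acetyltransferases Ep300 and Crebbp, coactivators of p53, were lower on stiff gels in Cav1KO cells (-0.90, limma adjusted p = 0.00243, and -1.04, limma adjusted p = 0.00783), and their effects in WT were 0.34 and 0.13 (limma adjusted p of 0.135 and 0.703). By limma 1 of the 16 regulators, Ep300, had stiffness effects called different, by 1.25 (limma adjusted p = 0.0260). DESeq2 also called the differences of Crebbp (1.16, adjusted p = 0.00617), Trp53bp1 (1.39, adjusted p = 0.00778) and Atm (0.93, adjusted p = 0.0375), whose adjusted p reached 0.0993, 0.103 and 0.0936 over the other alternatives and was 0.0663, 0.0713 and 0.0702 by limma.

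Between genotypes 4 regulators (25%) were higher and 3 (18.8%) lower in Cav1KO cells on stiff gels, beside 25% and 26.6% of all genes (median 0.055). On soft gels 4 (25%) were higher and 2 (12.5%) lower, beside 24.1% and 29.9% (median 0.071). On stiff gels the lower ones were Trp53bp1, a damage-site scaffold (log2 fold change -0.90, limma adjusted p = 0.0367), Atm (-0.79, limma adjusted p = 0.00905) and Usp7 (-0.47, limma adjusted p = 0.0330). Libraries of the same stiff group differed widely. Trp53bp1 was at 31.5 and 20.8 CPM in WT stiff and 19.4 and 9.04 CPM in Cav1KO stiff, and Atm at 30.3 and 22.3 against 17.5 and 12.2 CPM. The named higher ones there were Trp63 by 0.87 (limma adjusted p = 0.0350), Chek1 by 0.37 (limma adjusted p = 0.0301) and the ubiquitin ligase Rfwd2 by 0.35 (limma adjusted p = 0.00655). On soft gels the coactivators led, Crebbp by 1.17 (limma adjusted p = 0.00468) and Ep300 by 0.998 (limma adjusted p = 0.00145), together with Hipk2 by 0.75 (limma adjusted p = 0.0111), whereas Chek2 (-0.59, limma adjusted p = 0.00475) and Kat5, another acetyltransferase (-0.31, limma adjusted p = 0.0307), were lower. Neither Trp53 nor Mdm2 belonged to this list.

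Over the 8 libraries the genes whose log2(CPM + 1) followed Trp53 most closely, among 10063 genes averaging at least 5 CPM, were Lrrc47, Mex3b and Csk, with Pearson r of 0.995, 0.994 and 0.993. For Mdm2 they were Utp23, Iqcb1 and Cry1, with r of 0.989, 0.972 and 0.970. These are descriptions over 8 libraries in 4 groups of 2 that share substrate, genotype and scaling, and no test was made.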

How the data were processed

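RNA was sequenced from 8 libraries of immortalized MEFs, 2 for each genotype and gel. Per the labels and the study's methods, 500 ng of RNA went into NEBNext Ultra poly(A) libraries read as 60-base single reads on an Illumina HiSeq, and the submitters' processing notes name CASAVA 1.8.2, cutadapt, RSEM 1.2.3 and GRCm38. The authors deposited 1 table of TMM-normalized CPM per gene, recorded here as a normalized signal. In every library 100% of values were whole multiples of 1 read within 0.01 reads, so reads per gene were recovered and used for edgeR and DESeq2 only. The steps that filtered genes are not given in the sources used here.

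Groups came from the sample titles. limma 3.58.1 (R 4.3.3) was run with a mean-variance trend on log2(CPM + 1) over all 4 groups in 1 fit (4 residual degrees of freedom) on the 12494 genes that reached 1 CPM in 2 or more libraries, with two-sided tests and Benjamini-Hochberg adjustment per contrast at 0.05. The code was tested on simulated data. Alternatives were pseudocounts of 0.5 and 5, no filter, no trend, median centring, quantile normalization, edgeR 4.0.16, DESeq2 1.42.0, replicate blocks and leaving out each library. Named were all 10 genes, Cav1, Cdkn1a and, from each context list, the 3 largest called rises and falls per contrast among genes averaging at least 1 CPM. Gadd45a, Ak1, Pmaip1, Chek2 and, for further contrasts, other list genes were named after their values were seen. Members and lists were chosen with earlier results of these data known. Levels per kb used median transcript lengths of GENCODE M21 (GRCm38), which held 12460 of the 12528 identifiers. Replicate libraries differed by more than sampling noise in every group (chi-square per degree of freedom 3.49 to 18.1).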

Additional observations from a re-analysis of the deposited data

Results flagged for a closer look

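The effect of stiffness differed between the genotypes, by the limma interaction test, for 8 genes of the lists examined. They were 2 of the 10 genes (20%), 5 of 35 other targets (14.3%) and 1 of 16 regulators (6.25%). Over all genes the share called was 10.5%. Values are the WT effect minus the Cav1KO effect on the log2 scale, and the effects in each genotype follow. For Trp53inp1 the difference was -1.2 (-2.97 in WT and -1.77 in Cav1KO cells, limma adjusted p = 0.0293), and for Bax it was -0.54 (0.18 and 0.72, limma adjusted p = 0.0337). For Cdkn1a it was -2.07 (-1.10 and 0.98, limma adjusted p = 0.00286), the one gene of the 8 with called effects in opposite directions. For Gadd45a, a growth-arrest gene, it was -0.88 (-1.07 and -0.19, limma adjusted p = 0.0359), and for Ak1, an adenylate kinase, -0.68 (-0.65 and 0.032, limma adjusted p = 0.0304). For Steap3 it was -0.91 (-1.92 and -1.01, limma adjusted p = 0.0217), and for Slc19a2 also -0.91 (0.25 and 1.16, limma adjusted p = 0.0277). Ep300 was the one with a positive difference, 1.25 (0.34 and -0.90, limma adjusted p = 0.0260). Of the fits with all 8 libraries, those without the trend gave an adjusted p of 0.0596 for Bax and of 0.0540 for Ak1. As given above, the Bax and Trp53inp1 calls were lost when most single libraries were left out, and that of Cdkn1a was kept. The calls of the other targets besides Cdkn1a were also not kept in every such fit, and these fits are not reported here for Ep300. Over these fits the difference ranged from -0.62 to -0.47 for Bax, from -1.40 to -0.996 for Trp53inp1 and from -2.20 to -1.95 for Cdkn1a. Groups of 2 libraries allowed no check for outlying samples.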

How the results depend on the processing

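With all 8 libraries kept, the alternatives left most results as they were. Among 550 comparisons of a gene value between the reported fit and another fit with all 8 libraries, 513 kept their direction and call, 21 lost a call, 7 gained one and 9 changed sign. The 550 include results not called in the reported fit, which could not lose a call, and both replicate blocks described below. With DESeq2 1 of the 10 genes was called higher on stiff gels in WT, beside 19.6% of all genes. For the genotype effect on stiff gels DESeq2 called 2 lower, beside 23.1%, and median centring also 2, beside 23.5%. The sign changes were all of uncalled values, from -0.24 for Sesn2 in Cav1KO cells to values nearer 0. The WT stiffness effect of Mdm2 turned to 0.019 with median centring and 0.0092 with quantile normalization, and with the latter those of Ccng1 and Phlda3 to -0.041 and -0.035. In Cav1KO cells quantile normalization gave -0.067 for Ccng1 and 0.013 for Sesn2. The difference of effects turned to -0.012 for Trp53 and -0.044 for Ccng1 with median centring, and to 0.0040 for Zmat3 with quantile normalization.

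Leaving out each library in turn changed the numbers of genes called, in the lists and over all genes. The difference of effects had 0 to 3 of the 10 genes lower, and 0 to 1 of the other targets higher and 1 to 9 lower, while over all genes 0.288% to 14% were called higher and 0.592% to 13.5% lower, fewest without Cav1KO soft replicate 1 and most without Cav1KO stiff replicate 1. The genotype effect had 2 to 3 of the 10 genes lower on stiff gels, and on soft gels 3 to 6 of them lower and 3 to 8 of the other targets higher. Uncalled log2 values that crossed 0 were the WT stiffness effects of Mdm2 (-0.080 to 0.033), Ccng1 (-0.037 to 0.052) and Phlda3 (-0.035 to 0.073), that of Ccng1 in Cav1KO cells (-0.032 to 0.046), the differences of Trp53 (-0.055 to 0.12), Ccng1 (-0.044 to 0.045) and Sesn1 (-0.15 to 0.098), and the genotype effects of Bbc3 on stiff (-0.22 to 0.012) and Trp53inp1 on soft gels (-0.022 to 0.20). A fit that leaves a group with 1 library assumes that it varies like the other groups. Leaving out a library outside a comparison left its effect unchanged and altered only the shared spread.

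No label ties same-numbered libraries of different groups together, and their deviations did not correlate in 1 direction. Deviations shared between groups are not modelled in the reported fit, and their source was not tested. Deviations of same-numbered libraries from their group means correlated at -0.37 between WT stiff and WT soft and at 0.42 between WT stiff and Cav1KO stiff, and the other pairs of groups lay between -0.24 and 0.14. A replicate block left the calls of the 10 genes at 2 higher and 4 lower for stiffness in WT, 5 and 2 in Cav1KO cells, 0 and 2 for the difference, and 3 and 3 on stiff and 1 and 4 on soft gels for genotype. The shares of all genes were, in the same order, 22.1% and 25.7%, 27.7% and 28.1%, 4.55% and 6.04%, 24.9% and 26.6%, and 24.2% and 30%. The calls lost with the block were those of Ccng1 for genotype on both gels and of Bbc3 for stiffness in Cav1KO cells. With the numbers of WT soft swapped, a setting added after the data were seen, the difference of effects had 4 of the 10 genes lower, and 2 other targets higher and 11 lower, beside 13.4% of all genes higher and 15.8% lower. In the reported fit these shares of all genes were 4.47% and 6%.

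Each of the 10 genes had at least 75 reads in every library. With 2 libraries a group, the spread was estimated from 4 residual degrees of freedom. Genotype and line cannot be told apart, and mRNA levels do not measure p53 protein or its activity.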

Other observations

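Gadd45a, which was outside the rule for named genes, was at 15.7 and 16.1 CPM in WT stiff, 38.4 and 31.0 in WT soft, 13.9 and 14.2 in Cav1KO stiff and 14.4 and 18.1 CPM in Cav1KO soft. WT soft stood above the other groups, as it did for other genes of these lists, among them Cdkn1a, Sesn1, Sesn2, Bbc3, Steap3 and Cd82. Its genotype effect on soft gels was -1.05 on the log2 scale (SE 0.14, limma adjusted p = 0.000343). Ak1 was at 57.2 and 57.6 CPM in WT stiff, and the other 6 libraries lay between 80.9 and 98.7 CPM.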
